A study of Mus musculus with 6 samples.

Results

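Ifi44 and Ifi44l are neighbouring mouse genes that encode related interferon-induced proteins, and they are the 2 genes described here, of 16871 genes listed in at least 1 of 6 RNA-seq libraries. They were taken by their NCBI gene identifiers, 99899 for Ifi44 and 15061 for Ifi44l. Both were chosen by their FPKM and counts, because these differ between the genotypes compared, so that difference is given below as a description, without a test. The libraries came from macrophages grown for 7 days from the bone marrow of C57BL/6 mice aged 8 weeks and then exposed to oxidised low-density lipoprotein (oxLDL), the altered lipoprotein that fills macrophages in the atherosclerotic artery wall. The control group, LKO, held 3 libraries from mice lacking the low-density lipoprotein (LDL) receptor. The DKO group held 3 libraries from mice lacking both the LDL receptor and ALDH2, the mitochondrial aldehyde dehydrogenase. LDL receptor loss and oxLDL exposure were therefore shared by all 6 libraries, and ALDH2 was the stated difference. Any other difference between the 2 lines of mice cannot be told apart from ALDH2 loss here and was not tested. The labels do not say whether the libraries of a group came from separate animals or cultures, so the p-values below measure only the spread between these libraries.

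Type I interferons bind the IFNAR receptor, whose kinases JAK1 and TYK2 phosphorylate transcription factors of the STAT family. With IRF9 these form a complex that binds interferon-stimulated response elements, built around repeated GAAA letters, in front of many target genes. IFI44 and IFI44L are products of such targets. Both have been described as antiviral factors and also as feedback inhibitors, which bind the chaperone FKBP5 and dampen the kinases that activate IRF3 and NF-kappaB. Mouse Ifi44l was earlier named H28, after a minor histocompatibility antigen.

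Because the pair is studied for its interferon response, the stretch before the start of Ifi44 that resembles a response element is shown first, beside the same kind of site before 2 long-known targets, Ifit1 and Ifit3. Capitals mark matches to the response element, taken as GAAA, any 2 bases, then GAAACT, which on the strand printed here reads AGTTTC, any 2 bases, then TTTC.
Ifi44: atacagAGTTTCAGTTTTCGTTTCccgagc
Ifit1: gcaggcttcAGTTTCACTTTCcagtctcag
Ifit3: tcagtggtaAGTTTCACTTTCctcttctgg
The Ifi44 stretch is chr3:151749944-151749973 on the minus strand, the Ifit1 stretch chr19:34640774-34640803 and the Ifit3 stretch chr19:34583362-34583391 on the plus strand, all from RefSeq sequence of the build GRCm38.p6. The Ifit1 and Ifit3 sites match every fixed letter of the motif, at 106 to 95 and at 158 to 147 bases before the RefSeq start. Both were printed because they match exactly. Ifit2, Isg15, Oasl1, Irf7 and Iigp1 were searched alike and gave no exact match before the start, or had no sequence to search. The Ifi44 stretch holds 2 overlapping matches, each differing from the motif at 1 of its 10 fixed letters, over 18 bases that lie 57 to 40 bases before the RefSeq start. The GENCODE M21 model of Ifi44 starts inside this stretch.

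The motif search covered windows of 250 bases before to 50 bases after each RefSeq start, on both strands. The search with 1 mismatch was chosen after the Ifi44 sequence had been seen. The response element with up to 1 mismatch was found in 3.71% of 32851 windows, 2 or more matches in 0.161%, and at least 1 match in 29 of 49 type I interferon targets with a window (59.2%). Its core, GAAA, any 2 bases and GAAA without mismatch, overlaps the full element and was found in 3.44% of windows and in 25 of the 49 targets (51.0%), but not in the Ifi44 window. TTCNNNGAA, the STAT-type palindrome, was found in 8.30% of windows and was not in the Ifi44 window. These are matches of letters and not measured binding sites. The Ifi44l window held none of these motifs, but the reference model of Ifi44l is not complete at its beginning, so what lies before its true start may not be in that window.

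Both genes lie on the minus strand of chromosome 3 in the GENCODE M21 annotation of GRCm38, 8776 bases apart, with no annotated gene between them and no other gene overlapping either. Ifi44 has 8 exons, 2910 transcript bases and 1266 coding bases. The deposited tables assign it to NM_133871 with a length of 2916 bases. Ifi44l has only 3 exons, 1376 transcript bases and 469 coding bases in GENCODE, with no annotated start codon, whereas the deposited tables assign it to NM_031367 with 2279 bases, 903 more. The first exon of the GENCODE model, chr3:151762717-151762892 on the minus strand, is annotated as coding from its first base. It is shown to make the open beginning visible, with its 3 ATG triplets in capitals, whatever their reading frame.
Ifi44l: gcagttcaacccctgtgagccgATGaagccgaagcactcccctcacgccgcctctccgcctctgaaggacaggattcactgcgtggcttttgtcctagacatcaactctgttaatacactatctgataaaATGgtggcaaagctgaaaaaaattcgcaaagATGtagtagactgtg

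The coding sequences of the pair are related but share no long run of bases. In an alignment of 429 coding bases, 278 were identical (64.8%), and the longest run of bases shared by the 2 transcripts was 11. The deposited counts are expected counts, estimates that share a read among the transcripts it fits. Ifi44 carried fractional counts in all 6 libraries, taking as whole any value within 0.005 of an integer, while every Ifi44l count was whole. Of the 2875 runs of 36 bases in the Ifi44 transcript, 18 (0.626%) were also found in other genes, all between transcript bases 2139 and 2191. At 50 bases, no run of Ifi44 was shared. None of the 1341 runs of 36 bases in the Ifi44l model was shared with another gene, but the 903 further bases of the deposited transcript are not in that model. The read length is not given in the sources used here.

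The libraries were of nearly equal depth, 10760625 to 10987584 expected counts, with 14904 to 15048 genes listed in each. Aldh2, the deleted gene, fell from 241 ± 6.83 FPKM in the LKO libraries to 7.13 ± 0.181 in the DKO libraries (SD, n = 3 each), where FPKM is the count of fragments scaled to transcript length and to library size. Macrophage genes such as Lyz2, Adgre1 and Csf1r were high in every library, the 10 markers listed summing to 9997 to 12356 FPKM.

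Ifi44 was expressed in every library and was far higher in DKO. Its level was 6.43, 8.98 and 5.81 FPKM in LKO-1, LKO-2 and LKO-3. In DKO-1, DKO-2 and DKO-3 it was 56.5, 65.4 and 66.8 FPKM. All DKO libraries lay above all LKO libraries, and the lowest DKO value was 6.29 times the highest LKO value. The LKO mean was 7.07 ± 1.68 FPKM and the DKO mean 62.9 ± 5.60 (SD, n = 3 each), a ratio of 8.89, and the fitted log2 fold change was 3.16. The underlying expected counts were 206, 285 and 183 in LKO and 1819, 2096 and 2142 in DKO, so counting error is small beside the difference. In LKO, Ifi44 stood near the middle, above 51.1 to 59.9% of the genes listed in the same library. In DKO it was above 91.0 to 92.6% of them, at rank 1343, 1129 and 1103 from the top.

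Ifi44l was listed in DKO alone. No LKO library listed it, which counts as 0, while DKO-1, DKO-2 and DKO-3 gave 18.2, 15.6 and 21.7 FPKM from 456, 390 and 541 counts. The DKO mean was 18.5 ± 3.03 FPKM (SD, n = 3). A single read of Ifi44l would have been worth about 0.04 FPKM in these libraries, more than the smallest FPKM in the files, so a gene with 1 read would appear there. A count of 0 allows up to 3 counts a library, or 0.12 FPKM in LKO, which covers counting error only. Against that floor Ifi44l was at least 153-fold higher in DKO. In DKO it ranked 3758, 4231 and 3282 from the top.

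**Figure D1:**
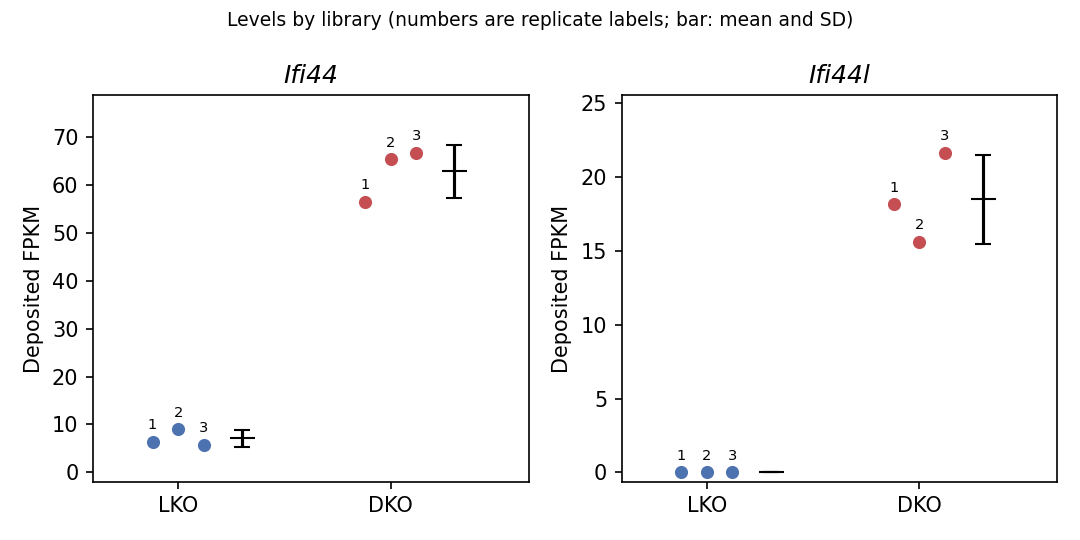
Deposited FPKM (vertical axes, linear and scaled separately) of Ifi44 (left) and Ifi44l (right) in the LKO and DKO libraries; each point is 1 library with its replicate label, and the black bar is the mean with its SD (n = 3). Ifi44 lay between 5.81 and 8.98 FPKM in LKO and between 56.5 and 66.8 in DKO, while Ifi44l was at 0 in every LKO library and between 15.6 and 21.7 in DKO.

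The 2 genes differed in level where both were present. The ratio of Ifi44 to Ifi44l FPKM was 3.11, 4.18 and 3.08 in DKO-1, DKO-2 and DKO-3 (3.46 ± 0.629, SD, n = 3). Ifi44 was the more abundant per length in all 3. This ratio depends on the transcript length used for Ifi44l: with the GENCODE lengths for both genes it was 1.88, 2.53 and 1.87 (2.09 ± 0.380), and the Ifi44l mean was 30.6 ± 5.02 FPKM in place of 18.5. Their libraries were not ordered alike within DKO. Both genes were highest in DKO-3, but Ifi44 was lowest in DKO-1 and Ifi44l in DKO-2.

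Within groups, Ifi44 was more variable in LKO than most other targets. Its coefficient of variation was 23.8% in LKO and 8.90% in DKO, and that of Ifi44l was 16.4% in DKO. Over 64 type I interferon targets listed for comparison, which leave out the pair, the median coefficient of variation was 8.33% in LKO and 7.47% in DKO, and 1 target exceeded Ifi44 in LKO. The highest LKO library for Ifi44, LKO-2, was also the highest of its group for 56 of the 64 targets, against 31.8% of all genes tested. In DKO, DKO-3 was highest for Ifi44, for Ifi44l and for 51 of the 64, against 33.2% of all genes tested. Ifi44 and most of the targets were thus highest in the same library of each genotype. Genes of 1 library are not independent, and no test was made of this order.

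The other type I interferon targets were higher in DKO as well, by much less. Of the 64, all passed the filter on low counts, 57 rose, 1 fell and 6 did not pass the test (edgeR's quasi-likelihood test with Benjamini-Hochberg adjustment over 11809 genes, threshold 0.05), where 7.42% of all tested genes were called higher and 6.88% lower. The median log2 fold change of the 64 was 0.48, a fold of 1.39, against 0.000184 over all genes tested. For 60 of the 64, every DKO library lay above every LKO library. That count was not made over all genes, so it has no background here. DESeq2 called 52 of them higher, limma 52 at each pseudocount and 42 without a filter on low values. Over all genes, DESeq2 called 4.91% higher and 4.39% lower. The limma shares were 5.21% higher and 5.25% lower at a pseudocount of 0.1, 5.24% and 5.32% at 1, 5.26% and 5.32% at 5, and 2.52% and 2.26% without a filter. In either direction, 13.2% of genes were called with a replicate block, and 12.4, 11.8, 11.9, 11.4, 11.1 and 9.82% without LKO-1, LKO-2, LKO-3, DKO-1, DKO-2 and DKO-3. Only 3 of the 64 rose by at least 2-fold, and none had a ratio of means as high as that of Ifi44. The highest was Oasl1 at 2.96.

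Oasl1, an oligoadenylate synthetase-like protein that restrains Irf7 translation, was at 6.12, 9.30 and 8.01 FPKM in LKO and 23.6, 21.9 and 23.9 in DKO, a log2 fold change of 1.58 ± 0.0964 (SE; edgeR adjusted p = 1.27e-10). Irf7, the transcription factor that amplifies interferon production, was at 68.3, 98.2 and 83.3 FPKM in LKO and 187, 188 and 212 in DKO (log2 fold change 1.24 ± 0.0819, edgeR adjusted p = 5.36e-10). Ifi204, a DNA-sensing protein of the p200 family, was at 53.5, 57.6 and 51.0 FPKM in LKO and 83.3, 84.8 and 97.2 in DKO (0.72 ± 0.0607 on the log2 scale, edgeR adjusted p = 2.28e-08). No LKO library of these genes reached a DKO library, which says little because they were picked by smallest p. Ifit3, a long-known target, was at 27.4, 36.8 and 28.5 FPKM in LKO and 56.2, 60.2 and 66.5 in DKO (0.99 ± 0.0838 on the log2 scale, edgeR adjusted p = 2.46e-08). Ifi27, which encodes a mitochondrial protein of the ISG12 family, was the listed target that fell, from 35.8 ± 3.90 to 26.6 ± 2.00 FPKM (SD, n = 3; log2 fold change -0.42, edgeR adjusted p = 0.000915). The 6 that did not pass were Ifit1bl1, Mx2, Tor3a, Uba7, Nmi and Cxcl10, of which Cxcl10, a chemokine, had a log2 fold change of 0.92 (adjusted p = 0.0522, and 0.0215 without DKO-2) and Uba7, the ISG15-activating enzyme, 0.14 (adjusted p = 0.0591, and 0.0476 without LKO-2).

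**Figure D2:**
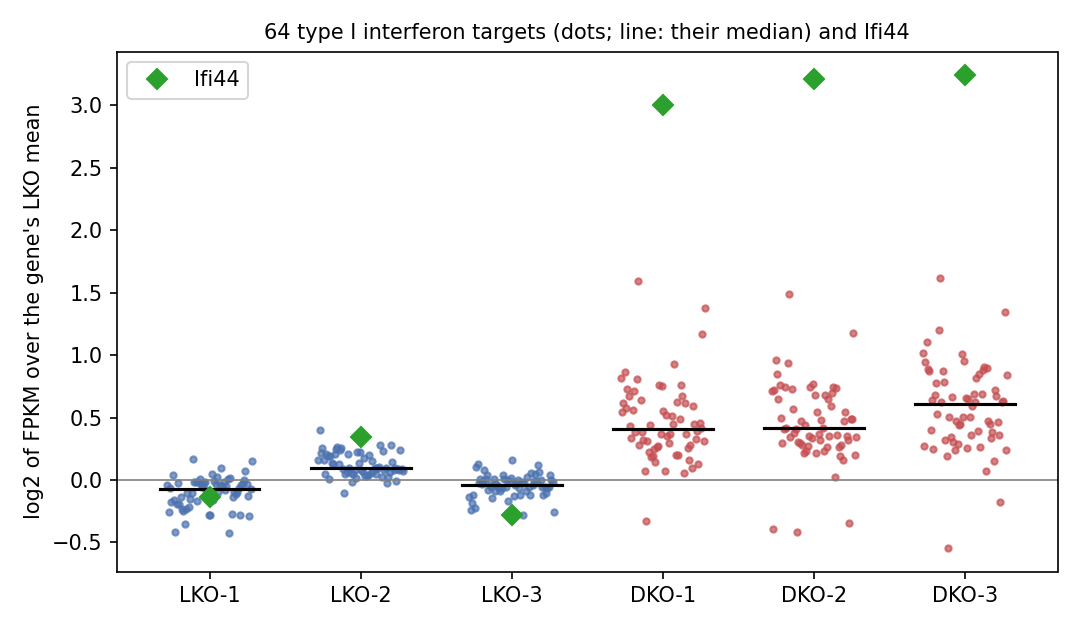
For each library (horizontal axis), log2 of FPKM over the gene's own LKO mean (vertical axis) for the 64 type I interferon targets (dots, black line at their median) and Ifi44 (green diamond). In the DKO libraries the target medians were 0.40, 0.41 and 0.61 and the highest target 1.60, 1.49 and 1.61, while Ifi44 was at 3.00, 3.21 and 3.24; Ifi44l has no LKO mean above 0 and is not drawn.

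The difference moved Ifi44 within the set of targets. In LKO, 7 of the 64 targets had a lower mean FPKM than Ifi44, and in DKO 49 did. The share of Ifi44 was taken in the summed FPKM of Ifi44, Ifi44l and the 64 targets. It was 0.224, 0.265 and 0.189% in LKO-1, LKO-2 and LKO-3, and 1.36, 1.48 and 1.44% in the DKO libraries. Ifi44l, at 0 in LKO, stood above 14 of the 64 in DKO.

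The upstream part of the pathway showed little RNA of the ligands looked up. Of 12 interferon genes named, 10 were listed in no library, among them Ifnb1, Ifna1, Ifna2, Ifna4, Ifna5 and Ifnab. Ifnz reached at most 0.27 FPKM (4.33 counts) and Ifng had 1 count in LKO-3, so none of the 12 could be tested. Alpha interferon genes outside this list were not looked up. Of 9 receptor and kinase genes, 8 were tested and 2 rose, where 7.42% of all tested genes were called higher, and the median of the 8 was 0.10 on the log2 scale. Ifnar2, a chain of the type I receptor, had a log2 fold change of 0.21 ± 0.0462 (SE; edgeR adjusted p = 0.0035), and Ifngr1, a chain of the interferon gamma receptor, of 0.31 ± 0.0486 (edgeR adjusted p = 9.19e-05). Ifnar1, the other type I chain, was at 0.11 (adjusted p = 0.13, and 0.048 without DKO-1), Jak1 at 0.05 and Tyk2 at -0.05, and none of these passed. Ifngr2, Il10rb and Jak2 did not pass either, with log2 fold changes of 0.06, 0.10 and 0.11. Ifnlr1, a chain of the lambda receptor, was too low to test.

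Of the 10 transcription factors, 5 rose, against the same 7.42% of all tested genes, and their median log2 fold change was 0.14. Stat2, a subunit of the complex that binds response elements, averaged 28.2 ± 2.15 FPKM across LKO libraries and 40.2 ± 3.06 across DKO libraries (SD, n = 3; a log2 fold change of 0.53, edgeR adjusted p = 2.07e-06). Irf9, its DNA-binding partner, rose by 0.26 on the log2 scale (edgeR adjusted p = 0.0022). Irf7, which is also one of the 64 targets, as are Stat2, Irf9 and Usp18, rose the most of the 10. Irf8, a factor of the myeloid lineage, had a log2 fold change of 0.17 (edgeR adjusted p = 0.0213), a call that was lost without LKO-1, LKO-3, DKO-1 or DKO-3 (adjusted p = 0.0558, 0.066, 0.0681 and 0.145). Stat3, Irf1, Irf2, Irf3 and Irf5 did not pass, with log2 fold changes of -0.0025, 0.11, 0.09, 0.02 and 0.05.

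Of 8 inhibitors of interferon signalling, 2 rose, again against 7.42%, with a median log2 fold change of 0.11. Usp18, which removes ISG15 and blocks IFNAR2, averaged 18.9 ± 2.41 FPKM over LKO libraries and 27.6 ± 2.70 over DKO libraries (SD, n = 3; log2 fold change 0.56, edgeR adjusted p = 7.43e-05). Ptpn11, a tyrosine phosphatase, had a log2 fold change of 0.18 (edgeR adjusted p = 0.00776, and 0.0656 without LKO-2). Socs1 at 0.37 and Socs3 at 0.21 on the log2 scale, both feedback inhibitors of Janus kinases, did not pass (adjusted p = 0.302 and 0.186, the second 0.0203 without LKO-3). Ptpn6, another phosphatase, was at -0.11 (adjusted p = 0.0567, and 0.0403 without LKO-1). Ptpn2, Pias1 and Pias4 were at 0.05, -0.03 and 0.03.

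Fkbp5 and genes of the kinase complexes that activate IRF3 and NF-kappaB were listed together as IFI44 family partners. Of these, 6 were tested, none rose and 1 fell. Over all tested genes 14.3% were called in either direction, so with 6 genes the count was near the background. The median log2 fold change of the 6 was -0.07. Fkbp5, the chaperone that both proteins bind, averaged 2.64 ± 0.181 FPKM over LKO libraries and 2.16 ± 0.344 over DKO libraries (SD, n = 3; log2 fold change -0.28, edgeR adjusted p = 0.206). Ikbke, a kinase that activates IRF3, was the one that fell, by 0.16 on the log2 scale (edgeR adjusted p = 0.0186). Its call was lost without LKO-2, LKO-3, DKO-1 or DKO-2 (adjusted p = 0.0792, 0.0946, 0.0807 and 0.0886). Tbk1, the related kinase, was at 0.07, and the IKK genes Ikbkb, Chuk and Ikbkg were at -0.08, 0.08 and -0.05. Of the other genes with a TLDc domain, which IFI44 also has, 4 were tested, too few to set 1 call against the background of 14.3%. None rose, and Tbc1d24 fell by 0.23 on the log2 scale (edgeR adjusted p = 0.0241), a call lost without LKO-1, LKO-3, DKO-2 or DKO-3 (adjusted p = 0.0588, 0.0664, 0.0855 and 0.113). Oxr1, Ncoa7 and Meak7 were at 0.02, 0.11 and 0.02, and Tldc2 was too low to test.

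Guanylate-binding proteins and immunity-related GTPases, which respond mainly to interferon gamma, were mixed. Of 14 tested, 6 rose, 2 fell and 6 did not pass, where 7.42% of all tested genes were called higher and 6.88% lower, and the median was 0.19 on the log2 scale. Iigp1, an immunity-related GTPase that attacks parasite vacuoles, was at 5.31, 6.55 and 5.53 FPKM in LKO and 16.6, 16.9 and 19.4 in DKO (log2 fold change 1.61 ± 0.0843, SE; edgeR adjusted p = 1.07e-11). Irgm1, Tgtp2 and Ifi47, of the same family, rose by 0.57, 0.81 and 0.49 on the log2 scale. Gbp8 fell by 0.58 (edgeR adjusted p = 0.000243) and Gbp3 by 0.26 (edgeR adjusted p = 0.0497). The Gbp3 call was lost when any single library was left out, with adjusted p from 0.0556 without LKO-2 to 0.164 without DKO-3, and with DESeq2 (adjusted p = 0.271).

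**Figure D3:**
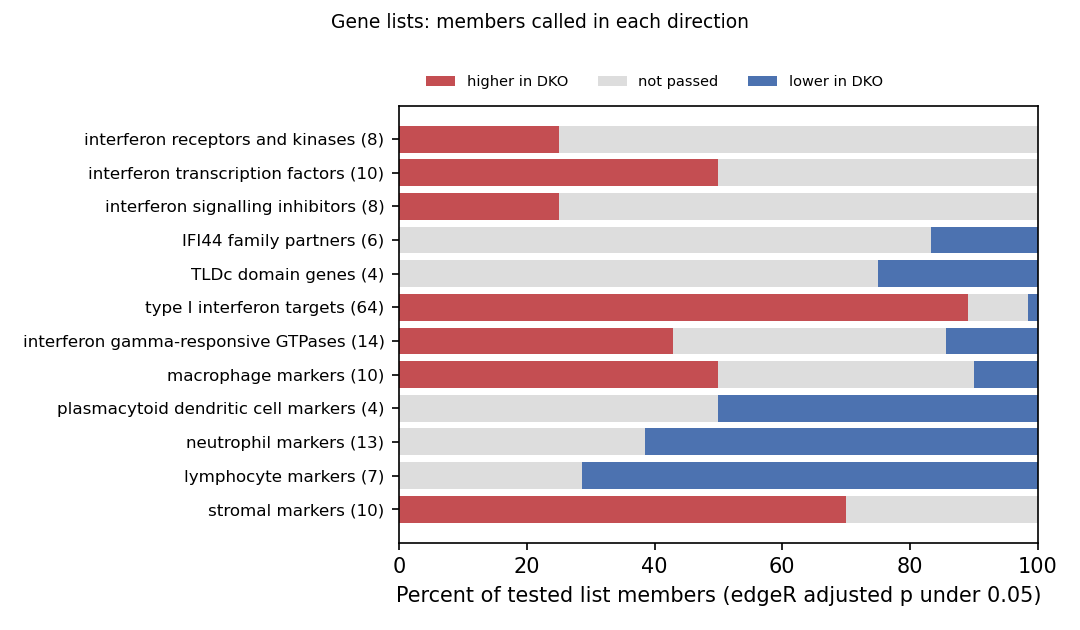
Percent of the tested members of each gene list (number tested in parentheses) called higher in DKO (red), lower in DKO (blue) or not passed (grey) at an edgeR adjusted p under 0.05. The type I interferon targets had 57 of 64 members called higher, the IFI44 family partners 0 of 6; over all genes tested, 7.42% were called higher and 6.88% lower.

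Markers of other cells that marrow cultures can hold also differed between the genotypes, and in bulk RNA fewer cells of a type and less RNA per cell cannot be told apart. Over all tested genes, 7.42% were called higher and 6.88% lower. Of 10 markers of plasmacytoid dendritic cells, the main producers of alpha interferon, 9 were listed, 4 were tested, none rose and 2 fell, Ly6d and Spib. Without LKO-3, DKO-1 or DKO-3, 1 fell. Siglech, a surface receptor of these cells, reached at most 0.34 FPKM and was too low to test. So were Ccr9, Cox6a2, Klk1 and Pacsin1, at most 0.23, 1.57, 0.1 and 0.17 FPKM. The transcription factors Tcf4, at 14.3 ± 0.658 FPKM in LKO and 14.5 ± 0.952 in DKO, and Spib, at 9.99 ± 0.119 and 5.89 ± 0.274 (SD, n = 3), made up most of the summed level. The summed level of the markers was 30.1 to 33.1 FPKM in LKO and 23.7 to 27.3 in DKO. Of 13 neutrophil markers tested, 8 fell, with sums of 629 to 686 FPKM in LKO and 424 to 464 in DKO, and 5 fell without LKO-2 or without DKO-2. Of 7 lymphocyte markers tested, 5 fell, with sums of 112 to 124 and 86.7 to 95.4 FPKM, and 3 fell without DKO-3. Of 10 stromal markers tested, 7 rose, with sums of 45.7 to 52.1 FPKM in LKO and 74.1 to 98.8 in DKO, and 4 rose without DKO-2. Of 10 macrophage markers, 5 rose, Csf1r, Mertk, Fcgr1 and Lyz2 among them, and Adgre1 fell. The part of these cell markers in the levels of Ifi44 and Ifi44l was not tested.

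The genes around the pair on chromosome 3 were called about as often as genes in general. Among the 10 tested genes on each side in RefSeq order, 3 of 20 were called (15.0%), near the 14.3% called among all genes tested, and their median log2 fold change was 0.03. Adgrl2, an adhesion receptor, and Prkacb, a catalytic subunit of protein kinase A, were the nearest tested genes on one side, with log2 fold changes of -0.04 and -0.11. On the other side Dnajb4, a heat shock protein, was at 0.14. Next to it Fubp1, a DNA-binding regulator of Myc, fell by 0.20 (edgeR adjusted p = 0.031), and further out Zzz3 fell by 0.26 (edgeR adjusted p = 0.0104). Acadm, a dehydrogenase of fatty acid oxidation, rose by 0.36 (edgeR adjusted p = 5.16e-05). The Fubp1 call was lost without LKO-2, LKO-3, DKO-1 or DKO-3 (adjusted p = 0.0603, 0.108, 0.16 and 0.134) and the Zzz3 call without LKO-1, DKO-1 or DKO-3 (adjusted p = 0.0516, 0.0528 and 0.0536). Miga1, picked out because it was the only one of the 20 past 1.5-fold, had a log2 fold change of 0.60 and did not pass (edgeR adjusted p = 0.0512). Another 15 genes of this stretch were too low to test, the immediate neighbours Adgrl4 and Ptgfr among them, at most 0.27 FPKM. With 5 genes on each side, 2 of 10 were called. With 20 on each side, where one side ran out of genes, 4 of 36 were called (11.1%).

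**Figure D4:**
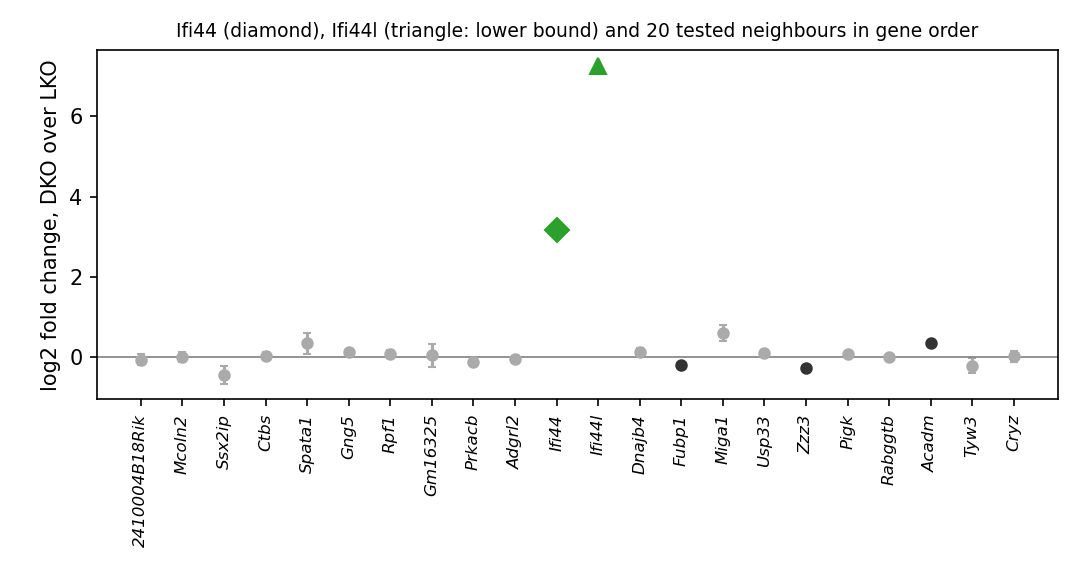
Log2 fold change of DKO over LKO (vertical axis) for Ifi44 (green diamond, no test), Ifi44l (green triangle, a lower bound) and the 10 tested genes on each side in chromosomal order (horizontal axis, evenly spaced); bars are SE, and black points passed the test. The 20 neighbours had a median of 0.03, while Ifi44 was at 3.16.

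Among 10699 genes, those whose log2(FPKM + 1) followed that of Ifi44 most closely over the 6 libraries were Serpinb2 (Pearson r = 0.9998), Vcam1 (0.998), Slc48a1 (0.997), Clmp (0.997) and Iigp1 (0.997). The libraries form 2 groups far apart, so these values mostly restate the difference between the genotypes, and no p is given. The size of the change was not shared. Vcam1, an adhesion molecule, went from 1.11 ± 0.148 to 2.77 ± 0.0833 FPKM, and Serpinb2, a plasminogen activator inhibitor, from 2.70 ± 0.112 to 4.11 ± 0.0436 (SD, n = 3).

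The pattern of Ifi44l, 0 in every LKO library and at least 1 FPKM in every DKO library, was found in 4 genes of the whole series. Besides Ifi44l at 18.5 ± 3.03 FPKM these were Gm8580, a transcribed pseudogene on chromosome 10, at 24.2 ± 2.90, Atp6v0e2, a subunit of the vacuolar proton pump, at 8.27 ± 0.590, and H2bc1, a testis histone, at 2.16 ± 0.586 in DKO (SD, n = 3). H2bc1 had at most 12.5 expected counts and was too low to test. The reverse pattern was found in 3 genes. None of the 64 type I interferon targets was at 0 in any library.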

How the data were processed

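Total RNA of oxLDL-treated macrophages was sequenced in 3 LKO and 3 DKO libraries. Per the file headers, the authors deposited for each library a table of genes with transcript identifiers, length, expected counts and FPKM. The submitters' processing notes name Bowtie 0.12.2 and the build mm8, and the counting tool is not given in the sources used here. A gene absent from a table was taken as 0. Of 16871 identifiers, 16832 were matched to gene names and 39 were not. Depth was 10760625 to 10987584 expected counts.

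Expected counts were rounded and fitted with edgeR 4.0.16 (filterByExpr, TMM, quasi-likelihood test, no covariate) in R 4.3.3, and p-values were adjusted by Benjamini and Hochberg's method across the 11809 genes that passed the filter, with calls at 0.05. SEs are the log2 fold change divided by the square root of the F statistic. Alternatives were DESeq2 1.42.0, its size factors in edgeR, no count filter, a replicate block, limma 3.58.1 on log2(FPKM + 1) for genes at 1 FPKM or more in 3 libraries, pseudocounts of 0.1 and 5, and leaving out each library. On simulated data with 200 changed genes of 11809, edgeR recovered 86% of genes changed 1.5-fold and 98% of those changed 2-fold. Every simulated gene was given the same common dispersion, so these shares do not hold for real genes of larger spread. Libraries of 1 group differed by more than sampling noise (chi-square per degree of freedom 1.68 to 3.71), so none was counted as a repeat sequencing of another. Separate preparations of 1 source can also differ in this way, so the values do not show separate animals or cultures. The biological coefficient of variation that edgeR fitted in common to all genes was 0.0413.

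The members and the 13 gene lists (186 names, 175 found) were chosen with earlier results of these data known. Genes named are the pair, Aldh2, the measured upstream, partner and TLDc genes, from the target and GTPase lists the 4 of smallest p that were higher and those that were lower, the neighbours called or nearest, the 5 genes most like Ifi44 and those at 0 in LKO alone. Targets that did not pass, marker genes that were called, and Miga1 were named after their values were seen. Some genes of these lists are counted but not reported here by name. Gene models came from GENCODE M21 and upstream windows from RefSeq, both on GRCm38, with sequences read from those references and not from the libraries.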

Additional observations from a re-analysis of the deposited data

How the results depend on the processing

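No result changed direction under the alternatives run. With limma, the genes called went from 1689 to 1119 at a pseudocount of 0.1 and to 807 without a filter. In the limma fits the neighbours called went from 3 to 1, the IFI44 partners and TLDc genes called from 1 to 0 each, and the stromal markers called from 7 to 4. DESeq2 called 0 TLDc genes, 1 plasmacytoid dendritic cell marker and 5 neutrophil markers, and limma without a filter called 1 and 5 of the last 2 lists. Lymphocyte markers called went from 5 to 3 with limma at a pseudocount of 0.1 and to 2 without a filter. At a pseudocount of 5 the median log2 fold change of the targets was 0.36 and that of Ifi44 2.50. A floor of 1 count a library in place of 3 gave a fold of 458 for Ifi44l. That is not a lower bound, because a count of 0 allows up to 3. GENCODE lengths gave a ratio of Ifi44 to Ifi44l of 2.09.

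Leaving out each library gave 1175 to 1481 genes called, 54 to 57 targets higher with a median log2 fold change of 0.42 to 0.55, 1 to 3 neighbours called, an Ifi44 log2 fold change of 3.04 to 3.37, an Ifi44l bound of 139 to 164 and a ratio of the pair of 3.10 to 3.65. Calls ranged from 0 to 1 for partners and for TLDc genes, 2 to 3 for receptors, 4 to 5 for transcription factors, 1 to 3 for inhibitors, 6 to 7 for GTPases, 5 to 6 for macrophage, 1 to 2 for plasmacytoid, 5 to 8 for neutrophil, 3 to 6 for lymphocyte and 4 to 8 for stromal markers. Same-numbered LKO and DKO libraries did not deviate together (correlations -0.0667 to 0.0037), and no library correlated best with its own number. No pairing by number was therefore seen. With 3 libraries in each group, this cannot exclude a pairing that touches few genes. With a replicate block, 1553 genes, 57 targets and 3 neighbours were called. Of 134 tested list genes and neighbours, 30 had a call that moved under some alternative, and the cause was not tested. At this depth, Ifi44l at up to 3 counts a library in LKO cannot be told from 0.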
